A study of Mus musculus with 25 samples.

Results

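A set of 131 long non-coding RNAs (lncRNAs) was higher in cells sorted from mouse spinal cord 7 days after a contusion than in cells from sham-operated cord. The 131 were taken from 21811 lncRNA rows, in a table of 43693 gene rows. They were chosen by their level in CPM (counts of the gene per 1 M counts of its library). Members had a mean of at least 2 CPM at 7 days, a ratio of at least 2 between the 7-day and the sham mean after 0.5 CPM was added to each, and every 7-day library above every sham library. Of 2007 lncRNA rows with at least 2 CPM at 7 days, 145 passed (7.22%). Another 14 of these were left out by name: H19, a clone named Gm42793 and 12 genes with the antisense suffix os in their names, such as Il1bos and Has2os. Because the members were selected on the 7-day and sham libraries, the difference between those groups is described here without a test.

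The injured animals behind the sorted libraries carried the alleles GFAP-Cre-/+:R26-tdT-/+ and had a moderate contusion of 60 kdyn at thoracic level T9. Their cells were collected at 7 days (7D, 3 libraries), 1 month (1M, 3 libraries) and 3 months (3M, 2 libraries). Sham animals had the same alleles, a laminectomy at T9 and no contusion, and were taken at 7 days (Sham, 3 libraries). The fluorescent protein tdTomato marks cells that express, or descend from cells that expressed, the Gfap-driven recombinase. Whole tissue of the injury site came from C57BL/6 mice at 3 months and at 1 month after the same contusion, with 3 libraries each, and every sorted or tissue library pooled 3 mice. Primary astrocytes of C57BL/6 brain, from postnatal days 4 to 7, received a lentivirus against the antisense lncRNA Zeb2os or a control virus, or a lentivirus against the transcription factor gene Zeb2 or its control, with 2 libraries in each of these 4 groups. The knockdown cultures are labelled with a genotype of -/-, which names the knockdown. All cultures were selected with puromycin at 1 µg/ml, and nothing says that the 2 libraries of a group were separate cultures, so their p-values measure only the spread between these samples.

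LncRNAs are transcripts without a long open reading frame. Many lie across a protein-coding gene on its other strand (antisense), start beside a coding gene and run the other way, or stand alone between genes. A few are known to act on nearby genes, on chromatin or as hosts of small RNAs, and for most no function is known. After a contusion, astrocytes at the injury become reactive, myeloid cells enter or multiply, blood vessels and fibroblast-like cells remodel, and matrix is laid down.

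Sorted libraries held 15.7 to 50.2 M counts, tissue libraries 15.4 to 27.1 M, the Zeb2os set 45.6 to 158 M and the Zeb2 set 29.0 to 65.4 M. The labels call the sorted cells astrocytes. All 12 astrocyte markers were detected, with a summed level of 2425 to 3036 CPM at 7D and 5172 to 6824 CPM in Sham, and 10 of the 12 were lower at 7D. The largest sum of any marker list was that of 8 oligodendrocyte precursor markers, at 8851 to 10063 CPM at 7D and 8875 to 11914 CPM in Sham. The 8 oligodendrocyte markers summed to 1549 to 1712 CPM at 7D against 416 to 1324 CPM in Sham. Of 6 ependymal markers, 5 were lower at 7D. Of 16 microglia and macrophage markers, 14 had every 7D library above Sham, and their sum was 5406 to 8061 CPM at 7D against 473 to 1860 CPM in Sham. The sum of 9 fibroblast and mural markers was 3351 to 3552 CPM at 7D against 159 to 642 CPM in Sham, that of 8 endothelial markers 401 to 474 CPM against 52.8 to 149 CPM, and that of 12 cell cycle genes 1219 to 1382 CPM against 265 to 346 CPM. The part of these cells in the members' levels was not tested, and in such bulk libraries more cells of a type and more RNA per cell cannot be told apart. The 7 neutrophil markers summed to 0.896 to 13.1 CPM at 7D against 3.3 to 66.7 CPM in Sham. The 6 lymphocyte markers summed to 0.19 to 0.841 CPM at 7D against 0.63 to 1.59 CPM in Sham. Of these lists, Ly6g, Mpo, Elane, Cd3e and Nkg7 were at 0 at 7D and the others were detected.

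The members' summed level was 3229 to 3710 CPM in the 7D libraries and 963 to 1143 CPM in the Sham libraries. The mean of a member ran from 2 to 679 CPM at 7D (median 6.45), and from 0 to 175 CPM in Sham (median 1.43). The ratio of 7D to Sham ran from 2.03 to 33.4, with a median of 3.03. The 5 most abundant members held 53.3% of the summed 7D level. The median coefficient of variation was 21.5% over the 7D libraries and 86.8% over the Sham libraries, the latter for members with any Sham count. The rule used these same libraries and most members were low in Sham. The figures over all genes were not taken, so nothing is read from this contrast about the replicates. Zeros in Sham lay mainly in 1 library: 2, 21 and 57 of the 131 had no count in Sham replicates 1, 2 and 3, where 3 counts correspond to 0.0883, 0.111 and 0.191 CPM. These limits cover counting error only. Some of those members were well above them in the other 2 Sham libraries, such as LOC108167763 with 2.88 and 2.26 CPM in Sham replicates 1 and 2. Without Sham replicate 3 the rule kept 149 lncRNAs, and 107 of the 131 were among them. One member, Gm30474, had no count in any Sham library and 1.54, 3.72 and 1.25 CPM at 7D. In edgeR's quasi-likelihood fit across all 24286 genes tested, 68 of the 131 were called higher at 7D (51.9%), where 9.87% of all genes were. The rule used the same contrast, so nothing is read from that count.

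The member nearest to the minimum level was AU022793, with a 7D mean of 2.00 CPM, and just outside lay 5330416C01Rik with 1.994 CPM. At the minimum ratio, Gm44771 was inside with 2.03 and Gm42002 outside with 1.969. The narrowest gap between groups was that of AC153370.2, whose lowest 7D value was 1.01 times the highest Sham value, and Gm33856 fell outside with 0.984. A further 24 lncRNAs passed both minima but had overlapping groups.

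The most abundant member was Gm10252 (ENSMUSG00000110350.1), a single-exon transcript of 832 exonic bases on the plus strand of chromosome 7 at 45459469 to 45460300 (GRCm38, the assembly also called mm10). It lies across Ftl1, the gene of the ferritin light chain, which stores iron. Gm10252 had 533, 802 and 703 CPM in 7D replicates 1 to 3, against 209, 122 and 192 CPM in Sham replicates 1 to 3. All 7D libraries were well above all Sham libraries. It had 516, 542 and 613 CPM at 1M and 910 and 1178 CPM at 3M. Per kilobase of exon it stood at 817 ± 164 CPM at 7D and 210 ± 55.2 CPM in Sham (SD, n = 3 each), the highest of the 96 members with annotated exons. The next on that scale, Gm26728, was at 93.7 ± 5.69 CPM per kilobase at 7D.

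Gm45836, on chromosome 8 at 121833247 to 121841178, had 540, 431 and 271 CPM at 7D and 78.0, 189 and 143 CPM in Sham. Gm4316, on the same chromosome at 123165255 to 123178765, had 47.8, 32.4 and 25.8 CPM at 7D and 11.9, 15.2 and 7.38 CPM in Sham. Both overlap the annotated gene Gm20388, which had no count in any sorted library. Gm26728 lies across Cd9, a tetraspanin of the cell membrane, and had 285, 261 and 293 CPM at 7D against 113, 88.1 and 167 CPM in Sham. Gm26778, whose exons fall wholly within the exons of Kctd12, a partner of GABA-B receptors, had 263, 295 and 190 CPM at 7D against 130, 67.0 and 27.7 CPM in Sham.

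AI506816 overlaps no coding gene and none within 10 kb (chromosome 5, 23698296 to 23712667, minus strand). It had 218, 213 and 285 CPM at 7D, and the Sham libraries lay close together at 76.5, 64.8 and 72.5 CPM. By 3M it was at 118 and 123 CPM. Gm32673 starts on chromosome 6 and ends 543 bases from the end of Cd9. It had 233, 186 and 199 CPM at 7D and 102, 18.3 and 61.3 CPM in Sham, and at 1M its 68.4, 80.0 and 68.3 CPM lay within the Sham range. AC153370.2 had 137, 86.6 and 50.9 CPM at 7D and 26.3, 50.6 and 25.6 CPM in Sham, so the groups all but met. AU020206 had 67.0, 84.4 and 49.7 CPM at 7D and 23.9, 19.2 and 37.9 CPM in Sham. LOC108168980, at Col16a1, a collagen gene, had 63.3, 57.1 and 48.9 CPM at 7D and 7.98, 31.6 and 21.1 CPM in Sham.

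**Figure D1:**
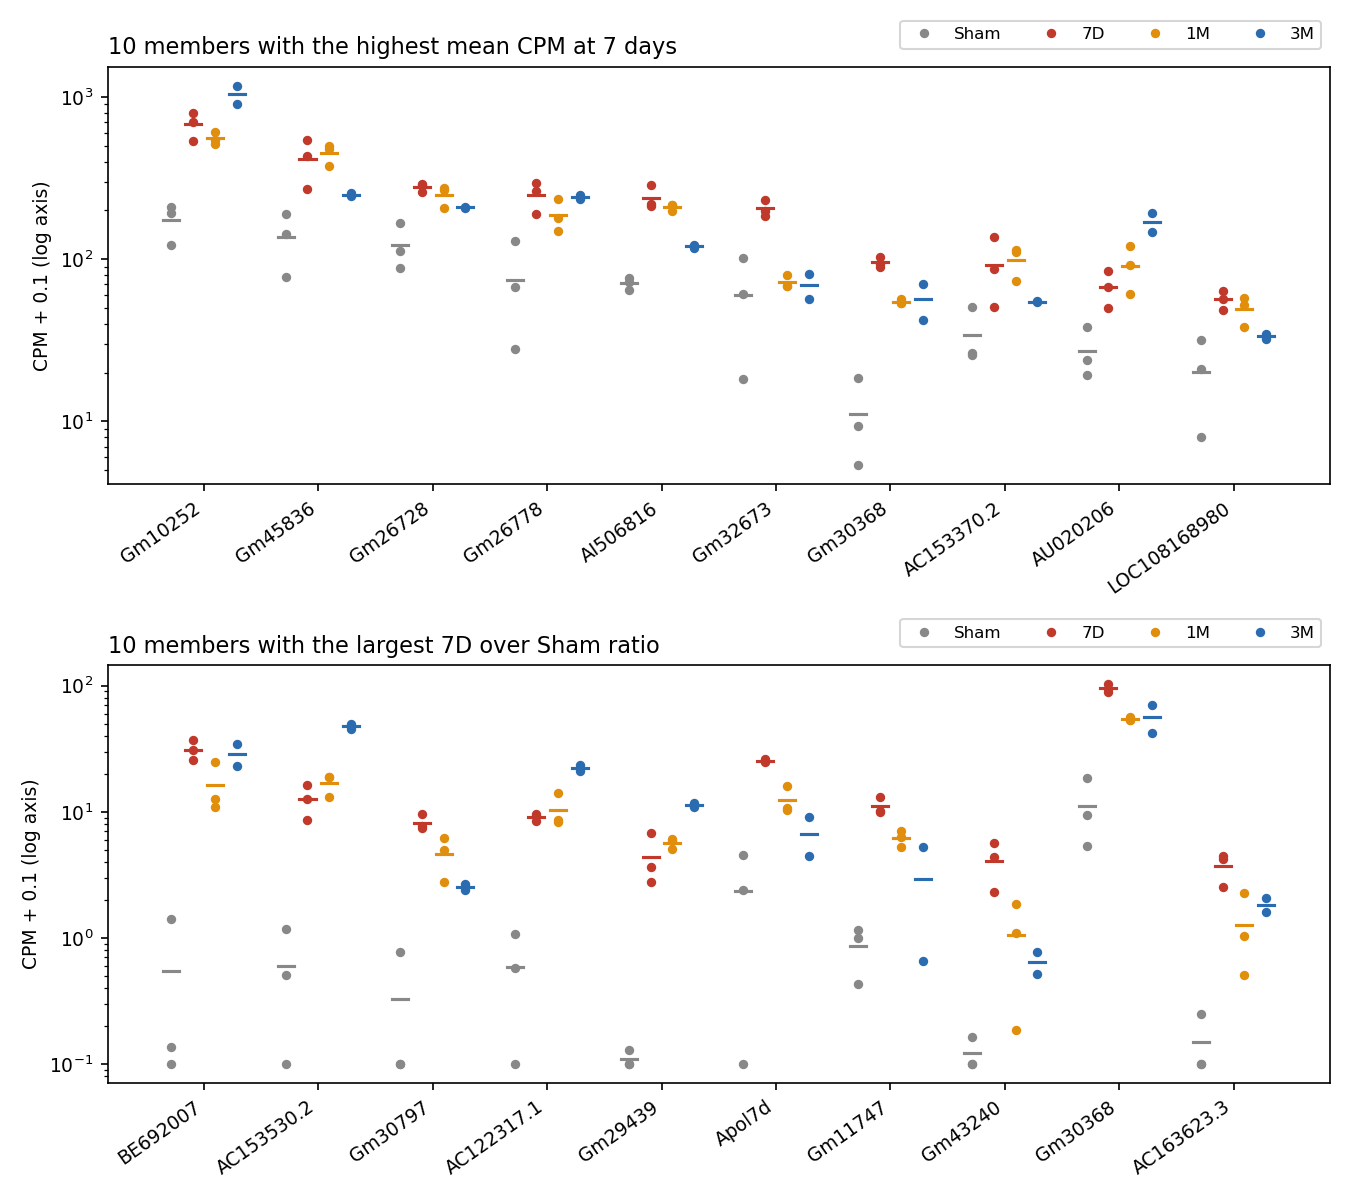
Level of the 10 most abundant members (top) and of the 10 with the largest 7D to Sham ratio (bottom) in each sorted library, as CPM + 0.1 on a log axis, with groups in time order from Sham to 3M. Points are libraries and bars are group means. Gm10252 is highest at 3M, AI506816 is lower at 3M (118 and 123 CPM) than at 7D (213 to 285 CPM), and AC153530.2 stands at 45 and 49.8 CPM at 3M.

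The largest ratio, 33.4, belonged to BE692007 on chromosome 19, which lies across Ms4a6c, a membrane protein gene of myeloid cells. It had 30.6, 37.1 and 25.5 CPM at 7D and 1.30, 0.0371 and 0 CPM in Sham. AC153530.2 followed with a ratio of 13.0, from 12.5, 16.3 and 8.47 CPM at 7D against 0.412, 1.07 and 0 CPM in Sham. The coding gene on its other strand, Lilrb4a, an inhibitory receptor of myeloid cells, was all but absent from these tables, with 0.126, 0.706 and 0.182 CPM at 7D. Gm30797, across the collagen gene Col20a1, had 9.43, 7.55 and 7.36 CPM at 7D, and 0.677 CPM in Sham replicate 1 with no count in the other 2.

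AC122317.1 lies across Gpr65, a receptor that senses protons, and had 9.11, 9.58 and 8.38 CPM at 7D against 0.971, 0.482 and 0 CPM in Sham. Gm29439 lies within Cd22, a sialic acid receptor of B cells and microglia, and had 3.53, 6.68 and 2.68 CPM at 7D against 0.0294, 0 and 0 CPM in Sham. Gm30368, across the galectin-1 gene Lgals1, appears in both lists of 10, with 93.5, 89.8 and 103 CPM at 7D against 9.27, 5.26 and 18.5 CPM in Sham. The other members with ratios among the 10 largest were Apol7d (9.34), Gm11747 (9.11), Gm43240 (8.64) and AC163623.3 (7.53). They lie across Fn1, C1qtnf1, Clca3a2 and Acp5, which encode fibronectin, a C1q/TNF-related secreted protein, a member of the calcium-activated chloride channel regulator family and an acid phosphatase of osteoclasts and macrophages.

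Few members have names other than clone numbers. Pvt1, a long transcript beside Myc on chromosome 15, had 3.82, 5.21 and 5.09 CPM at 7D and 1.35, 0.519 and 0 CPM in Sham, with no overlap. Ifi30 is known as the gene of a lysosomal thiol reductase used in antigen processing, but the deposited table types it as lncRNA and the annotation as a processed transcript (chromosome 8, 70762774 to 70766663). It had 40.0, 49.7 and 45.6 CPM at 7D and 12.8, 9.12 and 9.29 CPM in Sham. Clcf1-pold4, named as a transcript joining the cytokine gene Clcf1 with the polymerase subunit gene Pold4, had 13.5, 15.0 and 15.6 CPM at 7D and 9.95, 3.74 and 4.52 CPM in Sham. CT009486.1 lies across Ftl1-ps1, a ferritin light chain copy, and its reads may be shared with the near-identical Ftl1 and Gm10252. It had 17.4, 28.9 and 19.4 CPM at 7D and 6.39, 2.93 and 3.63 CPM in Sham. Of the members with LOC numbers, LOC108167763 was not placed and had 3.12, 4.05 and 4.91 CPM at 7D against 2.88, 2.26 and 0 CPM in Sham. LOC108169202, across the thromboxane synthase gene Tbxas1, had 1.95, 2.77 and 1.43 CPM at 7D against 0.412, 0.556 and 0 CPM in Sham.

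Positions showed how close the set lies to coding genes. Of the 131 members, 96 were placed with GENCODE M21 and 29 with RefSeq, and 6 were not placed. GENCODE gave 45 as antisense, 20 as intergenic, 16 as processed transcripts and 12 as regions still to be experimentally tested (TEC). Of the 125 placed, 104 overlapped a coding gene, 90 of them on its opposite strand (72%). Among the 1799 placed lncRNAs that also reached 2 CPM at 7D but are not members, 1210 lay on the opposite strand of a coding gene (67.3%). Exons shared bases with coding exons in 76 of 96 members (79.2%) and in 1090 of 1437 other lncRNAs (75.9%).

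Most coding partners were higher at 7D as well. In 81 of the 90 opposite-strand pairs the partner had every 7D library above every Sham library (90%), in 1 every one below and in 8 the groups overlapped. Bcl3 and Rasip1 are each the partner of 2 members and count in both pairs. For the other lncRNAs, the partner was above in 227 of 1210 pairs (18.8%) and below in 270. Since member and partner were read from the same libraries used by the rule, these shares are descriptions. The library kit marks strand, but the strand setting of the counting was not given in the sources used here, so the reads of a member and of the gene on its other strand cannot be told apart wherever their exons overlap. The one partner below Sham was Ampd2, an AMP deaminase gene, at a mean of 44.3 CPM at 7D and 65.8 CPM in Sham. Its antisense member Gm12500 had 3.09, 3.04 and 4.29 CPM at 7D against 2.09, 1.78 and 0 CPM in Sham.

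**Figure D2:**
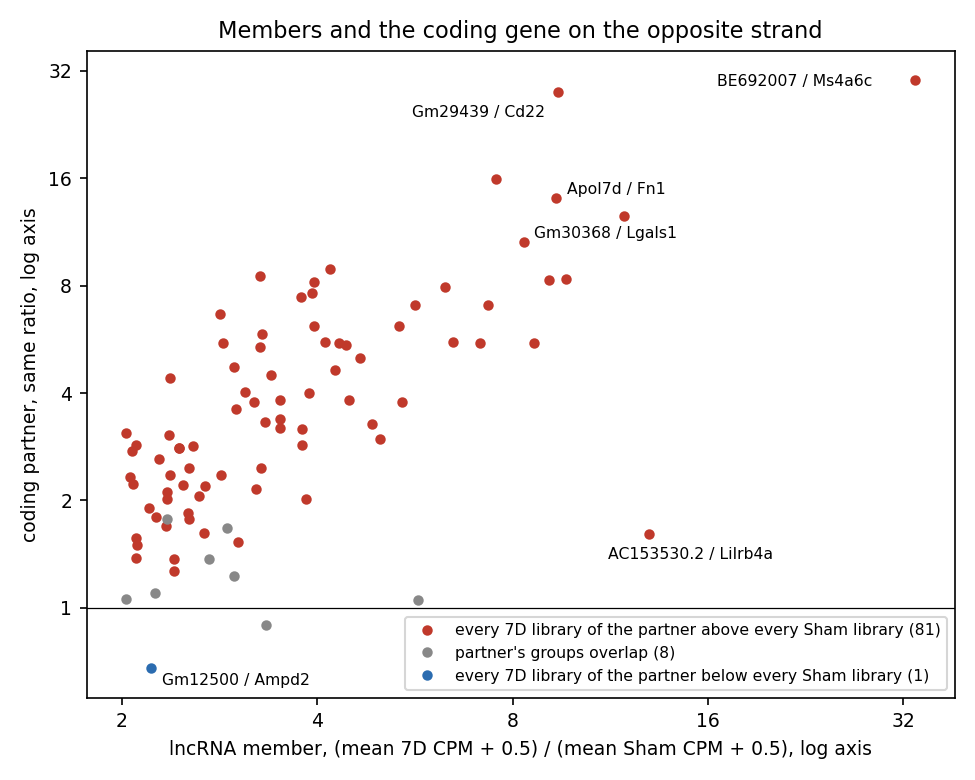
Ratio of 7D to Sham for 90 members (horizontal, log axis) and for the coding gene on the opposite strand (vertical, log axis), each with 0.5 CPM added to both means. Colours give whether the partner's 7D libraries lay above (81), overlapped (8) or lay below (1) its Sham libraries. AC153530.2, with a member ratio of 13.0 and a partner ratio of 1.61, stands far from the rest.

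In 15 of the 90 pairs the ratio of member to partner varied by less than 2-fold over all 11 sorted libraries, while in 46 pairs a library at 0 left no such range. The steadiest was Gm10252 to Ftl1, which ran from 0.494 to 0.566 in sorted cells, from 0.505 to 0.569 in tissue and from 0.470 to 0.559 in the Zeb2 set. Gm10143 stayed at 0.948 to 1.18 times Fen1, a nuclease of DNA replication, in sorted cells and at 0.978 to 1.00 times in tissue. Gm19719 stayed at 0.656 to 0.882 times Alox5ap, needed for leukotriene synthesis, and Gm26778 at 0.547 to 0.747 times Kctd12. Gm26728 stayed at 0.202 to 0.298 times Cd9. For these members the rise at 7D cannot be told apart from that of the partner. The other 10 such pairs included Gm26857 with the kinase gene Lyn, Gm14023 with the cytokine gene Il1a, Gm44732 with the cell cycle inhibitor gene Cdkn1c and Gm26542 with the leukotriene C4 synthase gene Ltc4s. Not every such pair was as steady in cultures. Gm26542 ran from 0.821 to 1.58 times Ltc4s in sorted cells and from 5.64 to 23.4 times in the Zeb2 set. There, Gm19719 ran from 0.8 to 5 times Alox5ap. The culture levels behind these ratios are not given here, so nothing is read from their spread.

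In other pairs the ratio moved further. That of 8030451A03Rik to Tnc, the gene of the matrix protein tenascin C, ran from 0.0194 to 0.105 over the sorted libraries, and that of AC122465.1 to the basement membrane gene Nid1 from 0.0283 to 0.349. The ratio of Gm14023 to Il1a was 0.245 to 0.420 in sorted cells and 0.846 to 2.11 in the Zeb2 cultures, where Gm14023 did not exceed 0.655 CPM.

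**Figure D3:**
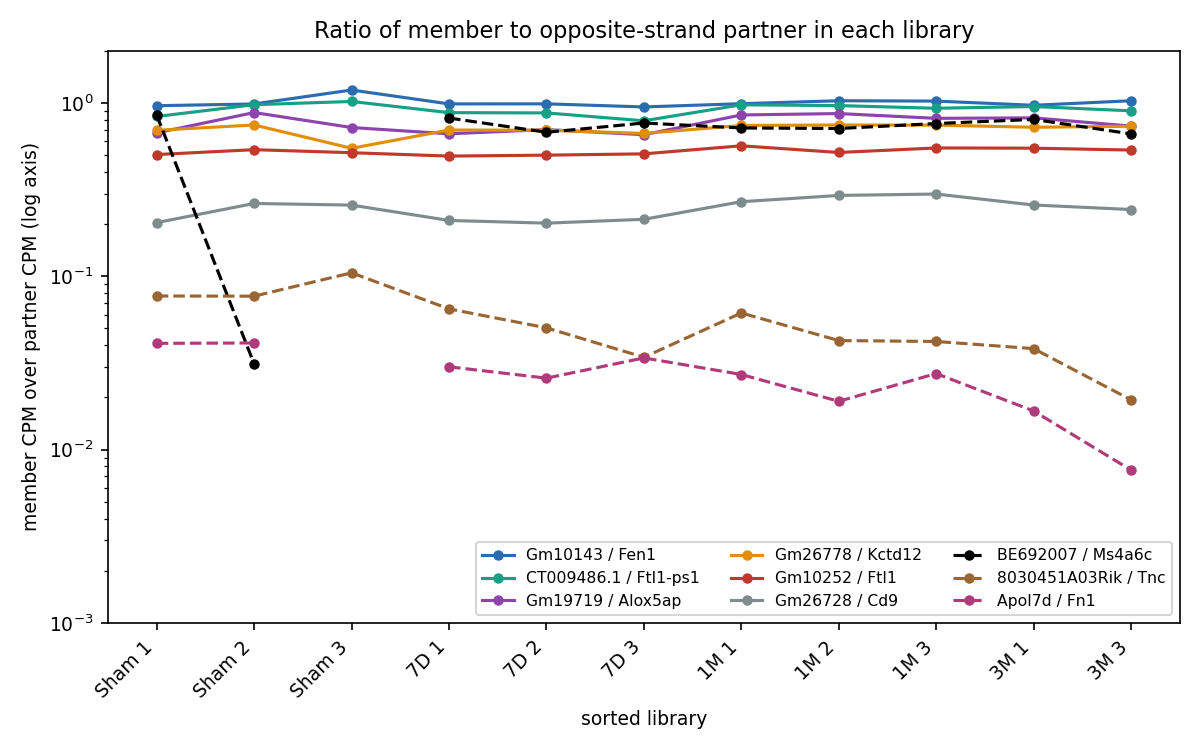
Member CPM divided by the CPM of its opposite-strand partner in each sorted library, log axis, in time order from Sham to 3M. Solid lines are 6 of the 15 pairs that varied by less than 2-fold and dashed lines are 3 other pairs, with a gap where the member or the partner was at 0. Gm10252 stays between 0.494 and 0.566 of Ftl1, and 8030451A03Rik runs from 0.0194 to 0.105 of Tnc.

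Promoters could be matched in RefSeq (GRCm38.p6) for 44 members, as windows of 250 bases before to 50 after the start. A set of 6 motifs were searched on both strands: AP-1 as TGANTCA, PU.1 as GAGGAAGT, STAT as TTCNNNGAA, E2F as TTTNNCGC, the TATA box as TATAAA and the CCAAT box as CCAAT. Members held them in 6.82%, 6.82%, 13.6%, 2.27%, 13.6% and 40.9% of promoters, in that order, and all 27025 promoters in 7.93%, 3.28%, 8.47%, 5.27%, 14.2% and 37.9%. The members' counts were small, at 3, 3, 6, 1, 6 and 18 promoters. Median GC content was 52.5% for members and 52.7% for all. The promoters of 3 members are printed 5′ to 3′ with every match in capitals. Gm30368 is shown because it is in both lists of 10 (chr15:78927922-78928221, minus strand), Gm14023 because its ratio to Il1a varied by less than 2-fold (chr2:129297120-129297419, plus strand) and AU020206 because its fall in tissue held in every alternative fit (chr7:75782071-75782370, minus strand).
Gm30368: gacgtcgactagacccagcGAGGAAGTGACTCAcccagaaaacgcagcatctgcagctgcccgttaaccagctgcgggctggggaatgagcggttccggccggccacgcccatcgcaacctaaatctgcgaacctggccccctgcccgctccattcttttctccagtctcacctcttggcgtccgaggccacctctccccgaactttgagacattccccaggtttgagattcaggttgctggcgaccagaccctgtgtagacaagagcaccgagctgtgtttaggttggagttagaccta
Gm14023: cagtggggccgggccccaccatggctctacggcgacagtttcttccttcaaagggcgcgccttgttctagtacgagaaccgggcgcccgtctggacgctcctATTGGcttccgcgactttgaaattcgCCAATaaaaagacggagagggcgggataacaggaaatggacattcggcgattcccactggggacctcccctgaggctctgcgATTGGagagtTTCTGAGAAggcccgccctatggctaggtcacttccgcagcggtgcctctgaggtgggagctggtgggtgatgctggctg
AU020206: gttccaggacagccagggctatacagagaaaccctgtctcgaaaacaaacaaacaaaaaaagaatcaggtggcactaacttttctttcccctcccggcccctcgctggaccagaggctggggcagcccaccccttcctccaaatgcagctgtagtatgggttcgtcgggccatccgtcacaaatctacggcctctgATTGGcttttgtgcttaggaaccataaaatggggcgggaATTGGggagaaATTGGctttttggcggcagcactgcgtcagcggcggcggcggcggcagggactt
In Gm30368 the PU.1 match begins at base -231 from the start and the AP-1 match at -224, so they share a base. Gm14023 has 1 STAT match, at -30, and CCAAT matches at -148, -122 and -40. AU020206 has CCAAT matches at -54, -15 and -4 and none of the other 5 motifs.

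At later times most members stayed above Sham. At 1M, 95 of 131 had every library above every Sham library (72.5%), against 16.7% of 19546 genes with a mean of at least 0.5 CPM. At 3M, 91 did (69.5%), against 17.3% of those genes. These groups share the Sham libraries with the rule, so the counts are descriptions. In all, 77 members were above Sham at both times, 18 at 1M alone, 14 at 3M alone and 22 at neither. The median member held 85.9% of its 7D mean at 1M and 92.9% at 3M. The group with the highest mean was 7D for 59 members, 1M for 17 and 3M for 55. The rule chose members by their 7D level, which favours 7D in this tally. Shares of all genes were not taken for this tally or for the split by both times. Without any 1 of the libraries concerned, 99 to 106 members were above Sham at 1M and 93 to 106 at 3M. Leaving out a library can only keep or raise such a count, so these ranges are no check of it.

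The members divided by what they did at 3M. In 32, both 3M libraries lay above every 7D library. This count is a description: the rule used the 7D libraries, and 3M has only 2 libraries. The same share over all genes was not taken. AW112010, a transcript of mouse macrophages once taken for non-coding and since shown to be translated, reached 419% of its 7D mean: it had 1.77, 0 and 0 CPM in Sham, 2.43, 2.88 and 2.66 CPM at 7D, 5.31, 3.37 and 4.04 CPM at 1M, and 12.2 and 10 CPM at 3M. AC153530.2 (381%) had 13.1, 18.9 and 18.7 CPM at 1M and 45 and 49.8 CPM at 3M. Gm15708 (323%) had 6.77 and 6.99 CPM at 3M against 2.49, 1.79 and 2.11 CPM at 7D. Further examples among the 32, picked after their values were seen, lie across genes used by myeloid cells. Gm29439 at Cd22 had 10.8 and 11.7 CPM at 3M, AC122317.1 at Gpr65 23.2 and 20.9 CPM, and Gm26857 at Lyn 12.8 and 15.3 CPM, against 6.5, 7.28 and 7.70 CPM at 7D for Gm26857. Other members at such genes had lower means at 3M than at 7D: BE692007 at Ms4a6c held 92.8% of its 7D mean, LOC108169202 at Tbxas1 57.9% and AC163623.3 at Acp5 47.4%. The 16 microglia and macrophage markers summed to 11136 to 13722 CPM at 3M, against 4558 to 7105 CPM at 1M and 5406 to 8061 CPM at 7D, and their part in these levels was not tested.

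In 41 members both 3M libraries lay below every 7D library. This count too is a description, because the rule used the 7D libraries and 3M has only 2 libraries. Its share over all genes was not taken either. LOC108168263, across the cartilage collagen gene Col2a1, had 1.95, 2.74 and 2.68 CPM at 7D, 0.137, 0 and 0.145 CPM at 1M and no count at 3M. Col2a1 itself was at 0.688 and 0.401 CPM at 3M against 33.4, 47.4 and 36.2 CPM at 7D. Gm43965 kept 5.53% of its 7D mean at 3M, with 0.275 and 0 CPM at 3M against 2.40, 2.55 and 2.52 CPM at 7D. The level of 9630013A20Rik was 5.76% of its 7D mean at 3M, with 0.523 and 1.38 CPM at 3M against 19.4, 19 and 11.2 CPM at 7D, and both 3M values lay below the Sham values of 5.86, 3.78 and 4.14 CPM. Its partner Pcdh17, a protocadherin gene, overlapped between 7D and Sham, with 125 to 164 CPM at 7D and 132 to 204 CPM in Sham.

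Further examples among the 41 were also picked after their values were seen. Apol7d, across Fn1, had 26.1, 25.0 and 24.7 CPM at 7D, 10.6, 10.2 and 16 CPM at 1M and 8.92 and 4.32 CPM at 3M. Gm15419, across the basement membrane collagen gene Col4a2, had 7.29 and 5.39 CPM at 3M against 12.2, 11.1 and 15.9 CPM at 7D, while 8030451A03Rik at Tnc had 1.43 and 0.668 CPM at 3M against 15.1, 12.9 and 7.09 CPM at 7D. Members at other matrix genes held more than their 7D mean at 3M, with 128% for Gm13372 at the collagen gene Col5a1 and 115% for AC122465.1 at Nid1. Gm14091, at Knstrn of the spindle, had 3.03 and 2.09 CPM at 3M against 15.4, 12.6 and 14.7 CPM at 7D. Gm14024, at the spindle gene Ckap2l, had 1.60 and 2.76 CPM at 3M against 8.07, 6.35 and 4.48 CPM at 7D. Gm44985, at the mitotic kinase gene Plk1, had 0.606 and 3.92 CPM at 3M against 6.72, 6.11 and 8.56 CPM at 7D. The 12 cell cycle markers summed to 356 to 408 CPM at 3M against 1219 to 1382 CPM at 7D, and their part in these levels was not tested.

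The comparison of 3M with 1M used libraries outside the rule and was tested. In sorted cells no member was called among 131 tested, where 0.103% of 24286 genes were called higher and 0.284% lower at 3M. At an unadjusted p under 0.05 there were 18 members, and DESeq2 called 5 higher and 4 lower. The members' median log2 change was 0.23, and that of all genes 0.00. The lowest adjusted p was that of 9630013A20Rik, with 0.523 and 1.38 CPM at 3M against 4.98, 4.68 and 4.71 CPM at 1M (log2 change -2.27 ± 0.53 SE, edgeR adjusted p = 0.0859). Gm10252 followed among the abundant members, with a log2 change of 0.98 ± 0.26 (edgeR adjusted p = 0.131). With the 2 groups fitted alone, 11 members were called, and with no filter on low counts also 11. The shares of all genes at an unadjusted p under 0.05, by DESeq2 and in these alternative fits are not given here. Nothing is read from those member counts.

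Tissue gave more calls. Of the 129 members with a tissue row, 119 passed the filter on low counts. Of these, 27 were lower at 3M (22.7%) and 2 were higher (1.68%), where 8.01% of 19652 genes were lower and 6.69% higher by edgeR. The members' median log2 change was -0.41, and that of all genes -0.00. The summed level of the members was 1158 to 1556 CPM at 3M and 1856 to 2289 CPM at 1M. Beside this, 14 of 16 microglia and macrophage markers were also called lower, with a sum of 2288 to 3329 CPM at 3M against 5743 to 7842 CPM at 1M, and the part of these cells in the members' fall was not tested. Of 12 astrocyte markers 2 were lower, of 7 neuron markers 4 were higher, and of 7 neutrophil markers 5 were higher, with a sum of 239 to 2231 CPM at 3M against 38.5 to 76.4 CPM at 1M. The count of called members was 7 without 1M replicate 1, 10 without 1M replicate 2, 13 without 3M replicate 3 and 59 without 3M replicate 1. The shares of all genes called in those fits are not given here, so nothing is read from how the count moved.

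The lowest adjusted p belonged to Gm26902, a bidirectional promoter lncRNA on chromosome 19 at 34474808 to 34481546, across Ch25h, which makes 25-hydroxycholesterol. It had 3.36, 3.24 and 2.59 CPM at 3M against 12.7, 14.4 and 11.9 CPM at 1M (log2 change -2.11 ± 0.15 SE, edgeR adjusted p = 0.00202). Ch25h also fell, to 4.88 ± 0.741 CPM at 3M against 29.0 ± 2.15 CPM at 1M (SD, n = 3 each). Gm42031 had 17.6, 12.5 and 12.6 CPM at 3M against 39.9, 51.8 and 42.8 CPM at 1M (log2 change -1.68 ± 0.16, edgeR adjusted p = 0.00293). The coding gene nearest to it on the same strand, Zfp791, was not called (edgeR adjusted p = 0.185).

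Gm40812, not placed in the annotations used, had 13.0, 9.76 and 8.83 CPM at 3M against 29.5, 39.4 and 35.5 CPM at 1M (log2 change -1.75 ± 0.17, edgeR adjusted p = 0.00293). AU022793 had 1.64, 1.47 and 1.95 CPM at 3M against 5.25, 6.46 and 5.17 CPM at 1M (log2 change -1.77 ± 0.18). Gm15832, on the strand of the ubiquitin ligase gene Rnf149, had 15.8, 14.9 and 15.9 CPM at 3M against 23.1, 27.8 and 24.9 CPM at 1M (log2 change -0.73 ± 0.09). AU020206, with no coding gene within 10 kb, had 60.1, 42.4 and 49.7 CPM at 3M against 99.0, 115 and 93.0 CPM at 1M (log2 change -1.04 ± 0.14, edgeR adjusted p = 0.0064). These 6 lncRNAs stayed called in every alternative fit. In each of them every 3M library lay below every 1M library.

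The 2 members that rose were Gm26658, across the synaptotagmin gene Syt4, and AC159379.2, within the plexin gene Plxnc1. In sorted cells Gm26658 had 40.2, 36.9 and 24.5 CPM at 7D against 7.07, 3.89 and 3.5 CPM in Sham. In tissue Gm26658 had 36.0, 30.8 and 31.4 CPM at 3M against 19.6, 17.5 and 23.7 CPM at 1M (log2 change 0.66 ± 0.13 SE, edgeR adjusted p = 0.0172). AC159379.2 was rarer, at 1.64, 1.11 and 1.15 CPM at 3M against 0.389, 0.343 and 0.544 CPM at 1M (log2 change 1.56 ± 0.31, edgeR adjusted p = 0.0188). Syt4 and Plxnc1 rose as well, by log2 changes of 0.63 ± 0.08 and 0.93 ± 0.25. Both members' calls held in 7 of 11 alternative fits and were lost with the replicate block and without 1M replicate 1, 1M replicate 2 or 3M replicate 3.

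Opposite-strand partners were tested beside 18 of the called members. Of the 17 members that fell, the partner fell for 15 and was not called for 2, and for the 1 member that rose the partner rose. Of 64 opposite-strand members that were not called, the partner fell for 8, rose for 3 and was not called for 53. Gm10252 and Ftl1 fell by log2 changes of -0.94 ± 0.16 and -1.05 ± 0.17, and Gm29439 and Cd22 by -0.83 ± 0.18 and -0.97 ± 0.15. The 2 members that fell without a called partner were LOC108167382, across the oxidised LDL receptor gene Olr1 (log2 change -1.57 ± 0.28), and 9630013A20Rik (-1.17 ± 0.26), while Pcdh17 changed by 0.37 ± 0.15 (edgeR adjusted p = 0.132).

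**Figure D4:**
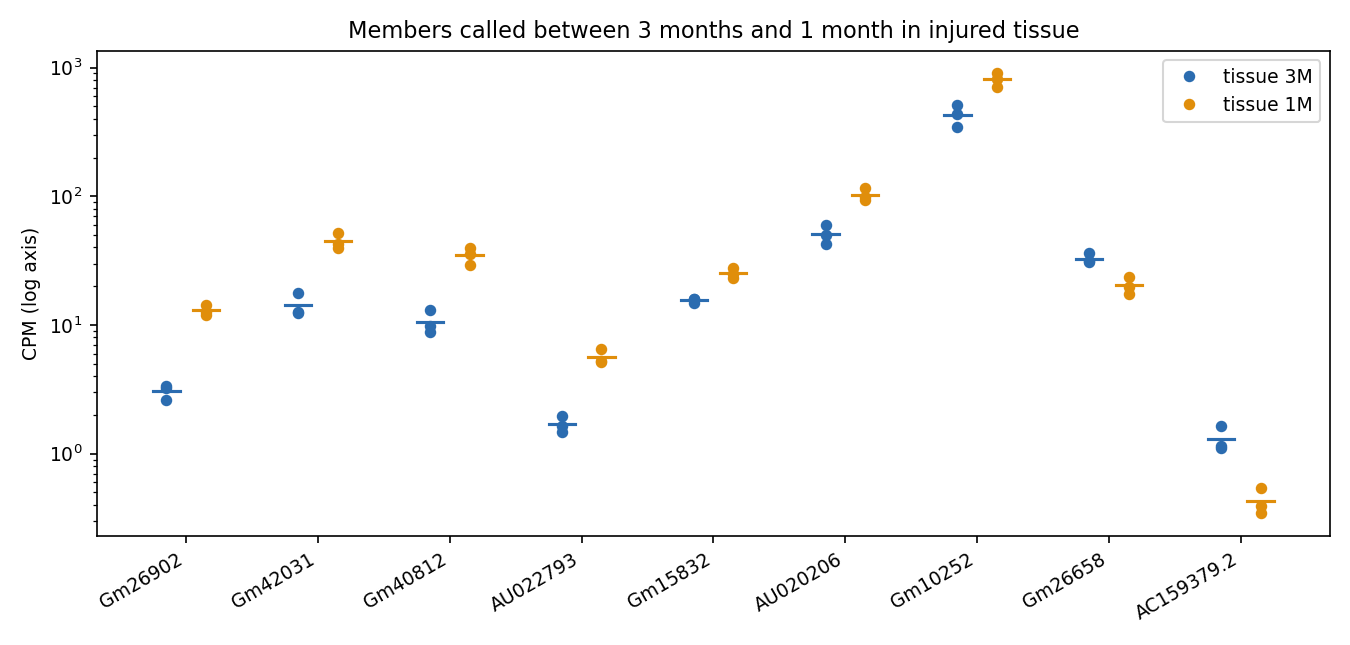
CPM on a log axis in each tissue library for 9 members called between 3M and 1M, with 3M left of 1M. Points are libraries and bars are means of 3. The first 7 fell, such as Gm26902 with 2.59 to 3.36 CPM at 3M and 11.9 to 14.4 CPM at 1M, and Gm26658 and AC159379.2 rose.

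Levels in sorted cells and in tissue were compared at 1M as a description, over genes in both tables. Of 129 members, 46 had every sorted library above every tissue library (35.7%) and 25 every one below (19.4%), against 36.7% and 32.7% of the 19625 genes with a mean of at least 0.5 CPM. The member highest in sorted cells relative to tissue was AC153370.2, at 99.8 ± 23.1 CPM sorted and 5.05 ± 2.06 CPM in tissue (SD, n = 3 each). Gm14023 was at 45 ± 16.6 CPM sorted and 2.29 ± 0.159 CPM in tissue, and AI506816 at 210 ± 10.8 CPM sorted and 29.5 ± 2.96 CPM in tissue. Lowest relative to tissue was Gm40841, at 1.36 ± 0.692 CPM sorted and 14.7 ± 0.967 CPM in tissue.

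**Figure D5:**
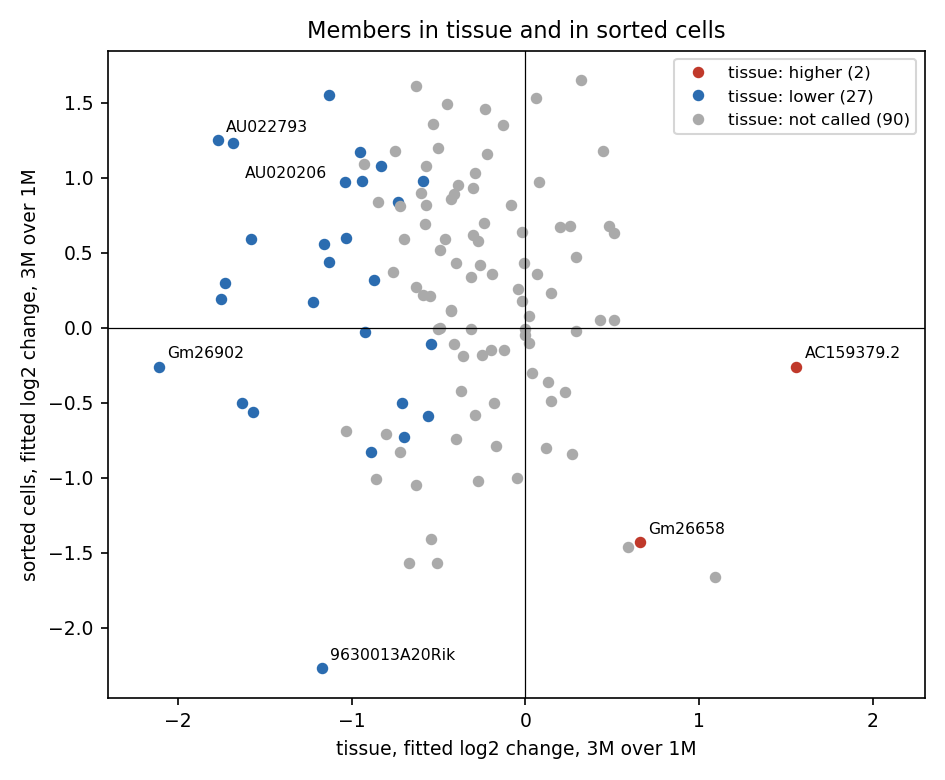
Fitted log2 change of 3M over 1M for 119 members in tissue (horizontal) and in sorted cells (vertical), from 2 separate fits. Colours give the tissue call (2 higher, 27 lower, 90 not called), and no member was called in sorted cells. AU022793 and AU020206 lie at upper left, lower in tissue at -1.77 and -1.04, and Gm26658 lies at lower right.

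In cultured astrocytes the targeted genes were read first. Zeb2os had 2.94 and 4.10 CPM in the libraries labelled Zeb2os knockdown against 5.89 and 4.21 CPM in their controls, a difference that did not pass the test (log2 change -0.36 ± 0.35 SE, edgeR adjusted p = 0.735). Zeb2 had 25.2 and 16.2 CPM in Zeb2 knockdown cultures against 138 and 130 CPM in controls (log2 change -2.83 ± 0.33). This did not pass the test across all genes either (edgeR adjusted p = 0.999), with no gene called in that comparison. In the Zeb2os cultures 115 members were tested and none was called by edgeR, where 0.121% of 20741 genes were higher and 0.0675% lower. There, 16 members had an unadjusted p under 0.05, and DESeq2 called 1 higher and 2 lower. In the Zeb2 cultures 102 members were tested and again none was called by edgeR, where 0% of 17600 genes were higher and 0% lower. Among these, 10 had an unadjusted p under 0.05, and DESeq2 called none. The members' median log2 change there was -0.26 and that of all genes 0.03, with 68 members below 0 and 34 above. Their summed level was 3547 and 3751 CPM in Zeb2 knockdown cultures against 4682 and 4033 CPM in controls. In the Zeb2os cultures the median was -0.08 for members and -0.01 for all genes. For neither culture set is the share of all genes at an unadjusted p under 0.05 or by DESeq2 given here. Nothing is read from those member counts.

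The lowest adjusted p among members in the libraries labelled Zeb2os knockdown was that of Gm45836, with 45.1 and 49.9 CPM against 92.5 and 138 CPM in controls (log2 change -1.10 ± 0.23, edgeR adjusted p = 0.11). Gm44985, across Plk1, had 5.61 and 6.22 CPM against 15.6 and 13.8 CPM in controls (log2 change -1.15 ± 0.25, edgeR adjusted p = 0.125). In both culture sets, some fits without 1 library called members where the main fit called none. Those fits left 1 library in a group, and nothing is read from them.

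Cultures gave a level for most members in cells without an injury. Gm30368 had 732 and 945 CPM in the libraries labelled Zeb2os knockdown and 620 and 536 CPM in their controls, above every sorted library. Gm10252 had 1449 and 1454 CPM in the libraries labelled Zeb2os knockdown and 1360 and 916 CPM in their controls. In sorted cells Gm10252 had 533 to 802 CPM at 7D and 910 and 1178 CPM at 3M. Gm30474 had no count in any culture, and AC122317.1 did not exceed 0.471 CPM in any.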

How the data were processed

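The authors deposited raw counts as 4 gene tables (sorted cells, tissue, Zeb2os cultures, Zeb2 cultures), with no normalisation. The build mm10, DESeq2, Cufflinks 2.2.1, TopHat2 2.1.0 and FastQC are named per the submitters' processing notes. The counting program, its annotation and its strand setting are not given in the sources used here. Per the labels' protocols, RNA was taken with TRIzol and libraries made with a kit that marks strand.

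CPM was computed from the deposited counts on each column's total. Identifiers without a match in the Zeb2 cultures (33, with 0.00161% of the counts) were not used. The members and all lists were chosen with earlier results of these data known. Named genes were the 10 highest by 7D mean, the 10 largest ratios, members without clone names, up to 5 called in each direction per comparison, those nearest each threshold, the 3 largest and 3 smallest shares of the 7D mean left at 3M, and their coding partners. Others named were chosen after their values were seen. A partner is the coding gene, present in the sorted table, that overlaps a member or lies within 10 kb (GENCODE M21, RefSeq GRCm38.p6).

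Each table was fitted on its own with edgeR 4.0.16 in R 4.3.3: filterByExpr at a minimum count of 10, TMM scaling, the quasi-likelihood F test and Benjamini-Hochberg adjustment over all genes tested, with calls at 0.05. All 11 sorted libraries shared a fit. SEs were derived from the F statistic. Alternatives were DESeq2 1.42.0, its size factors, no filter, a replicate block, other sets of rows or groups and leaving out libraries.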

Additional observations from a re-analysis of the deposited data

Results flagged for a closer look

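A number of named members moved in opposite directions between 3M and 1M in sorted cells and in tissue, with every 3M library on one side of every 1M library in both. The difference between the sets itself was not tested, since the tables were made and scaled separately. Over all 129 members with a tissue row, 14 were higher at 3M in sorted cells and lower in tissue, and 2 the other way round. The share of all genes that met the same condition was not taken, so nothing is read from these counts. No member was called between these times in sorted cells, where 3M has 2 libraries. Log2 ratios below are of group means with 0.5 CPM added.

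Of the first kind, AC153530.2 differed by 1.46 in sorted cells and -1.05 in tissue, Gm42031 by 1.14 and -1.62, AC122317.1 by 1.08 and -0.62, and AU022793 by 1.03 and -1.48. Gm29439 differed by 0.95 in sorted cells and -0.66 in tissue, AU020206 by 0.90 and -1.01, and Gm10252 by 0.90 and -0.91. Ifi30 differed by 0.77 in sorted cells and -0.81 in tissue, Gm15832 by 0.77 and -0.68, and Clcf1-pold4 by 0.73 and -0.53. Of the second kind, Gm26658 differed by -1.36 in sorted cells and 0.68 in tissue, and Pvt1 by -0.73 and 0.28. The summed microglia and macrophage markers moved like the first kind and opposite to the second. In sorted cells they were at 11136 to 13722 CPM at 3M against 4558 to 7105 CPM at 1M. In tissue they were at 2288 to 3329 CPM at 3M against 5743 to 7842 CPM at 1M. Their part in these members was not tested.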

How the results depend on the processing

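The rule kept 143 rows on TMM-scaled CPM, 138 with 0.1 CPM added, 186 at a minimum of 1 CPM, 85 at 4 CPM and 36 at a ratio of 4, and 133 to 194 without 1 library, against 131. Of the 131, 107 passed without Sham replicate 3 and 119 to 127 without any other single library. Members above Sham numbered 95 at 1M and 93 at 3M on TMM-scaled CPM. Without 1 library, settings added after seeing the data, they numbered 99 to 106 at 1M and 93 to 106 at 3M. These counts could only stay or rise in those settings, which therefore check nothing. Sorted above and below tissue stood at 43 and 27 with TMM over both tables.

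In sorted 3M against 1M, where no member was called, DESeq2's size factors gave 0 and leaving out 1 library 0 to 0, while DESeq2 called 9, no filter 11 and the 2 groups alone 11. In tissue, 30 members were called with those size factors, 32 with DESeq2, 33 with no filter and 32 on lncRNA rows alone, against 29, and 7 to 59 without 1 library. Of the 29, 6 stayed called in every alternative, and none changed direction. The Zeb2os set gave 3 with DESeq2, 5 with no filter and 0 to 26 without 1 library, and the Zeb2 set 1 with no filter and 0 to 4 without 1 library. Where 1 library was left in a group (sorted 3M or a culture group), it was assumed to vary like the others. The cause of these shifts was not tested. Shares of all genes called in these settings are not given here, so nothing is read from how the member counts moved.

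Replicate numbers are shared between groups, and nothing says that they pair animals or cultures. Same-numbered libraries correlated at 0.06 and 0.02 (sorted), -0.19, -0.27 and -0.01 (tissue), -0.03 (Zeb2os) and 0.39 (Zeb2). With the replicate block, calls numbered 0 for sorted cells, 10 for tissue, 6 for Zeb2os cultures and 1 for Zeb2 cultures. In Sham replicate 3, the sorted library with the fewest counts, 57 members had no count, and the part of depth in this was not tested.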
